A study of Mus musculus with 15 samples.

Results

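The mRNAs of 10 subunits of the ionotropic glutamate receptors were followed across the RNA sequencing libraries of embryonic mouse cortex and cultured cortical neurons with and without Phf6, the X-linked gene of a chromatin-associated protein. The members were named one by one: the AMPA receptor subunits Gria1, Gria2, Gria3 and Gria4, the NMDA receptor subunits Grin1, Grin2a, Grin2b and Grin2d, and the kainate receptor subunits Grik2 and Grik5. All 10 were found among the 23132 genes kept from the count table. Of the 15 libraries, 3 were Phf6 +/Y and 5 were Phf6 -/Y cortices taken at E15.5, and 3 were Phf6 +/Y NesCre T/+ and 4 were Phf6 lox/Y NesCre T/+ cultures of cortical neurons from E16.5, all on C57BL/6. Phf6 -/Y foetuses carry a germline deletion, whereas in the cultures Cre, driven by nestin sequences in neural progenitors, deletes the floxed gene and is also present in the control cultures. Every library comes from male foetuses by its genotype, and litter was recorded for each: litters 1 to 3 gave the cortices and litters 4 to 7 the cultures, litter 7 without a control. Each library stands for 1 foetus by the study's description of the samples, so the errors cover the spread between foetuses and its technical part.

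Fast excitatory transmission in the brain runs through these receptors, in which several subunits surround a cation channel. AMPA receptors carry the rapid current, and the edited Gria2 product (GluA2) makes them nearly impermeable to calcium. NMDA receptors need the obligatory Grin1 product (GluN1) and take further subunits from the Grin2 genes; in the forebrain before birth Grin2b and Grin2d are the ones in use, and Grin2a comes up after birth. Kainate receptors form from Grik1, Grik2 and Grik3 products, which Grik4 and Grik5 products join as high-affinity partners.

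Levels are given as CPM (read counts scaled to a common library size, with TMM scaling over all libraries together), and, where genes are compared with each other, as RPKM, which also divides by gene length. Total counts per library were between 16858007 and 31157700. As a check of the labels, Phf6 was at 149 to 191 CPM in control and 42.4 to 55.2 CPM in deleted cortices, and at 228 to 259 CPM in control and 59.9 to 85.8 CPM in deleted cultures, so that the groups did not overlap. One Phf6 -/Y cortex, replicate 1 of litter 3, stood apart: its 8 excitatory neuron markers summed to 1340 CPM against 2135 to 2378 CPM in the other deleted and 2201 to 2326 CPM in the control cortices. In this library Neurod6, a gene of excitatory neuron differentiation, was at 280.1 CPM, the lowest of all cortices, while the vesicular glutamate transporter gene Slc17a6 was the highest, at 89.6 CPM. Choroid plexus markers (1.81 to 472 CPM summed over 5 genes) and meningeal markers (11.9 to 518 CPM over 5 genes) varied between cortices of both genotypes. The part of these differences in the results was not tested.

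Promoter sequences of RefSeq (GRCm38.p6) were available for 6 of the 10 members in a table of 32851 promoter windows, each running from 250 bases before to 50 bases after a transcription start. The 250 bases before the start are shown for 3 members whose levels differed between cultured neurons and cortex, 2 that were higher in neurons and 1 that was lower. Capitals mark each CG dinucleotide, the site of DNA methylation. Gria2 lies on the minus strand of chromosome 3 (chr3:80802836-80803085), Gria4 on the minus strand of chromosome 9 (chr9:4796235-4796484) and Grin2d on the minus strand of chromosome 7 (chr7:45866682-45866931), and each is written 5′ to 3′ in the direction of the gene.
Gria2: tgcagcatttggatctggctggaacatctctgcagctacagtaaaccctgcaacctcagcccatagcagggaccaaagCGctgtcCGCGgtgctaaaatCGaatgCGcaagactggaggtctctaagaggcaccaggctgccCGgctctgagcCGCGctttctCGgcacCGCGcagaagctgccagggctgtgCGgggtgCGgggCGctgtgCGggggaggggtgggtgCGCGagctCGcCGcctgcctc
Gria4: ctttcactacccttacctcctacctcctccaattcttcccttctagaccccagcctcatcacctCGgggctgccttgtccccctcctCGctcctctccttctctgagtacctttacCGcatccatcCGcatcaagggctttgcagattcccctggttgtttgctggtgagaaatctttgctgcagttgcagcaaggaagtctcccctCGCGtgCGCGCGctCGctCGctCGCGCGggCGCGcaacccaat
Grin2d: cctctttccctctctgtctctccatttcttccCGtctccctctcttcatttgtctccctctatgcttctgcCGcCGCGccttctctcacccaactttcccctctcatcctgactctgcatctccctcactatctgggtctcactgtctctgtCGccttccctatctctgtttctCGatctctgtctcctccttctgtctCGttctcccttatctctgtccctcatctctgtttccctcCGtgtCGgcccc
The Gria2 stretch holds 19 CG dinucleotides, the Gria4 stretch holds 16 with a dense run close to the start, and the Grin2d stretch, rich in pyrimidines, holds 9. Over the full windows the counts of CG were 26 in Gria2, 17 in Gria4, 33 in Grin1, 12 in Grin2d, 26 in Grik2 and 10 in Grik5, against a median of 7 over all windows, and 8.56% of all windows held as many as Grin1. The GC box GGGCGG, searched on both strands, was in 35.7% of all windows and in 2 of the 6 members: 2 copies in Grik5, both before the start, and 1 in Grin1 just after it. Neither the TATA motif TATAAA, in 13.6% of all windows, nor the cAMP response element TGACGTCA, in 1.79%, was found in any of the 6 windows. The Gria2 and Grin2d starts lie inside the span that the RefSeq annotation gives the gene, whereas the Gria4 start is its end on the minus strand. These are descriptions of the letters, since no binding or methylation was measured.

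By the RefSeq annotation (GRCm38) that gave the symbols, Gria1 (gene 14799) lies on chromosome 11 from 57011571 to 57330244 and Gria2 (14800) on chromosome 3 from 80681450 to 80804227. Gria3 (53623) lies on chromosome X from 41400819 to 41678601 and Gria4 (14802) on chromosome 9 from 4417893 to 4796234. Grin1 (14810) lies on chromosome 2 from 25291177 to 25319187, Grin2a (14811) on chromosome 16 from 9567901 to 9996083, Grin2b (14812) on chromosome 6 from 135713221 to 136173615 and Grin2d (14814) on chromosome 7 from 45831883 to 45871194. Grik2 (14806) lies on chromosome 10 from 49093680 to 49790161 and Grik5 (14809) on chromosome 7 from 25009849 to 25075694. Gria3, like Phf6, is X-linked. Values are counts per gene over its annotated exons and do not separate isoforms.

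The members differed widely in level. In control cortex Grik5, the partner subunit of kainate receptors, had the highest level at 64.1 ± 8.06 RPKM (SD, n = 3), followed by Gria2 at 36.1 ± 8.82, Gria1 at 22.3 ± 3.44, Grik2 at 11.8 ± 0.56, Gria3 at 8.72 ± 1.35, Gria4 at 6.55 ± 0.56, Grin1 at 6.29 ± 0.80, Grin2b at 3.22 ± 0.86 and Grin2d at 2.32 ± 0.30 RPKM. Grin2a came last at 0.077 ± 0.078 RPKM. Among these neighbours only Gria4 and Grin1, and Grin2b and Grin2d, overlapped over the control cortices. In Phf6 -/Y cortex the order was the same, and each neighbouring pair from Gria3 down to Grin2d overlapped.

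In control neurons Gria2 took the first place at 108 ± 18.8 RPKM (SD, n = 3), above Grik5 at 64.4 ± 3.73 RPKM. Gria1 followed at 23.8 ± 1.78 RPKM, and then came Grik2, Gria3, Gria4, Grin2b and Grin1 between 12.8 and 6.497 RPKM, each overlapping the next. Grin2d was at 1.16 ± 0.070 RPKM and Grin2a at 0.166 ± 0.081 RPKM, apart from each other and from the rest. In deleted neurons the order was that of the control neurons, with Gria2 at 92.0 ± 20.9 RPKM (SD, n = 4) and one culture at 63.0 RPKM, within the range of Grik5. Reads of Grik5 may include or lose reads shared with the overlapping gene Zfp574, and those of Grin1 reads shared with Lrrc26 and the antisense gene Grin1os, since the strand setting of the counting is not given in the sources used here. Over all libraries 397 reads were counted for Grin1os against 10938 for Grin1.

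**Figure D1:**
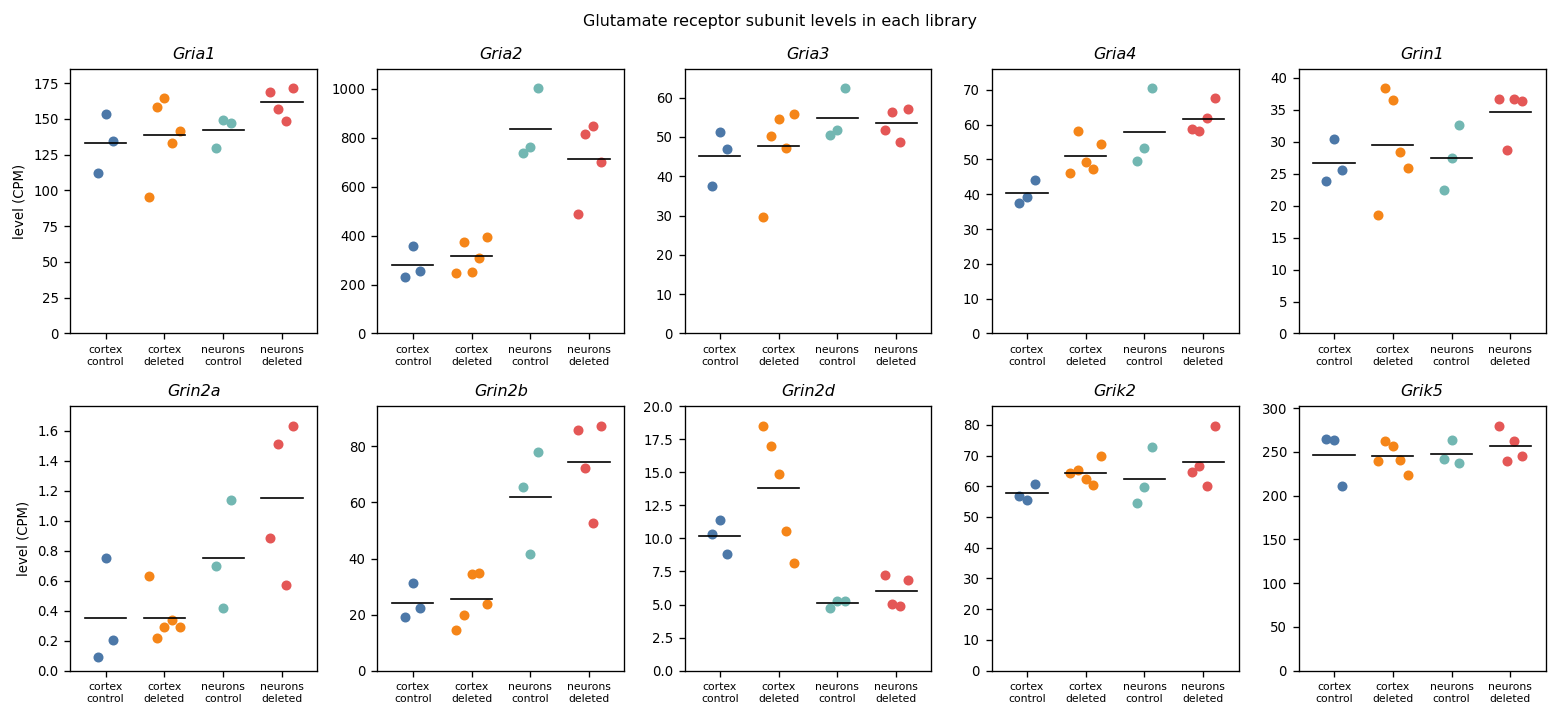
CPM of each member in each of the 15 libraries, by group, with the group mean as a black line and a linear axis from 0 in each panel. Gria2 and Grin2b are higher and Grin2d lower in the cultures than in the cortices, and the control and deleted points overlap in every panel of the cultures, while Gria4 is the 1 member whose control and deleted cortices do not overlap.

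The first question was whether loss of Phf6 changed the subunit mRNAs in the E15.5 cortex. No member passed an FDR of 0.05 (the adjusted p of edgeR's quasi-likelihood test, fitted with a term for litter). Grin2a, with 3 to 19 reads per cortex, was removed by the filter on low counts, and the other 9 were tested. Over all 14750 genes tested, 57 passed (0.386%). At an unadjusted p below 0.05 there were 2 of the 9 members, Gria4 and Grin2d, against 10.5% of all genes, and 1 member, Gria4, had groups that did not overlap, against 5.02% of all genes tested. The median log2 fold change was 0.039 over the 9 members and -0.0021 over all genes. At the same unadjusted p, 2 of the 9 neuron markers (list median 0.067) and 2 of the 8 inhibitory neuron markers (0.12) were higher in deleted cortices. Of the 8 excitatory neuron markers (median -0.25), 2 were lower. None of these markers passed the FDR, and their part in the members' values was not tested.

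Gria4, the AMPA subunit gene with fast-gating products, was at 44.1, 39.3 and 37.5 CPM in the controls of litters 1, 2 and 3. In the Phf6 -/Y cortices it was at 47.3 and 54.3 CPM in litter 1, 58.2 and 49.2 CPM in litter 2 and 46.2 CPM in litter 3. Every deleted cortex was above every control, the mean of the deleted to the control being 1.15, 1.37 and 1.23 times within litters 1, 2 and 3. The log2 fold change was 0.31 (SE 0.089, 95% interval 0.12 to 0.50, FDR = 0.198). Without the cortex that stood apart, which is the only deleted library of litter 3, it was 0.32 (FDR = 0.396).

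Grin2d, the NMDA subunit gene of slowly closing channels found in embryonic brain and interneurons, was at 8.79, 11.4 and 10.4 CPM in the controls of litters 1, 2 and 3. In the Phf6 -/Y cortices it was at 10.6 and 8.11 CPM in litter 1, 17.0 and 14.9 CPM in litter 2 and 18.5 CPM in litter 3. The groups overlapped, since the litter 1 libraries of both genotypes were alike and the deleted cortices of litters 2 and 3 lay above all controls. The log2 fold change was 0.44 (SE 0.15, 95% interval 0.11 to 0.77, FDR = 0.319). The library with the highest value is the one with few excitatory neuron markers, and without it the log2 fold change was 0.29 (FDR = 0.689).

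For Grik2, a pore-forming kainate subunit gene, the Phf6 -/Y cortices were between 60.3 and 69.7 CPM and the controls between 55.4 and 60.7 CPM. It was higher on average in the deleted libraries of all 3 litters, with a log2 fold change of 0.15 (SE 0.074, 95% interval -0.0059 to 0.31, FDR = 0.498). Gria2 ranged from 229 to 358 CPM in controls and from 247 to 395 CPM in deleted cortices, a log2 fold change of 0.12 (SE 0.20, 95% interval -0.39 to 0.62). The intervals are wide for Gria2 and Grin2b, whose levels differed between cortices of the same litter: the deleted cortices of litter 2 held Gria2 at 373 and 252 CPM and Grin2b at 19.7 and 34.5 CPM.

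The remaining estimates were close to 0 in the cortex. Grin1, the obligatory NMDA subunit gene, had a log2 fold change of 0.039 (95% interval -0.20 to 0.28), Gria1, the AMPA subunit gene best known from synaptic potentiation, -0.032 (-0.18 to 0.12), Gria3 -0.035 (-0.24 to 0.17), Grin2b, the main embryonic Grin2 gene, -0.046 (-0.66 to 0.57) and Grik5 -0.0012 (-0.15 to 0.15). For Gria1, Gria3, Grin1 and Grin2b the library that stood apart held the lowest value of all 8 cortices, 95.1, 29.7, 18.6 and 14.5 CPM. Without it their log2 fold changes were 0.053, 0.084, 0.19 and 0.085, and that of Grik5 was 0.059, none of them past the FDR. In bulk tissue fewer cells of a type and less RNA per cell cannot be told apart.

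In the E16.5 cortical neurons, where the same question was asked, all 10 members were tested and again none passed an FDR of 0.05. Over all 13909 genes tested, 38 passed (0.273%). An unadjusted p below 0.05 was reached by Grin1, Grin2b and Gria1, 3 of 10 members against 10.3% of all genes, and no member had groups that did not overlap, against 7.23% of all genes. The median log2 fold change was 0.14 over the members and 0.00097 over all genes, and 8 of the 10 estimates were above 0, against 50.3% of all genes. Since litter 7 gave a deleted culture alone, that culture does not bear on the within-litter estimates. Of the marker lists, 1 gene passed, the choroid plexus gene Ttr, whose list summed to 0.880 to 3.14 CPM in control and 2.98 to 23.2 CPM in deleted cultures; its part in the members' values was not tested. At an unadjusted p below 0.05, 5 of the 9 neuron markers were higher in the deleted cultures (list median 0.13), while 3 of the 4 intermediate progenitor markers (median -0.23) and 3 of the 10 radial glia markers (median -0.14) were lower, none of them past the FDR. Of the 8 excitatory neuron markers (median 0.019) and the 8 inhibitory neuron markers (median 0.012), 0 reached that p in either direction. The summed neuron markers were at 10309.9 to 11473 CPM in control and 11197 to 11789 CPM in deleted cultures, and the part of this in the members' values was not tested.

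Grin1 was at 22.4, 27.5 and 32.6 CPM in the control cultures of litters 4, 5 and 6. In the Phf6 lox/Y NesCre T/+ cultures it was at 28.7, 36.7 and 36.4 CPM in the same litters and at 36.7 CPM in litter 7. Each deleted culture was above the control of its litter, by 1.28, 1.34 and 1.12 times, while the lowest deleted culture lay below the highest control. The log2 fold change was 0.31 (SE 0.095, 95% interval 0.10 to 0.51, FDR = 0.232). The call depended on 1 library: without the control of litter 6 the log2 fold change was 0.39 and passed (FDR = 0.036), in a fit that called 494 genes in all against 38 with every library.

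Grin2b was at 65.6, 41.7 and 78.1 CPM in the controls of litters 4, 5 and 6. The deleted cultures were at 72.4, 52.8 and 87.4 CPM in these litters and at 85.9 CPM in litter 7. Both cultures of litter 5 were the lowest of their genotype, and within each litter the deleted culture was the higher. The log2 fold change was 0.21 (SE 0.073, 95% interval 0.053 to 0.36, FDR = 0.304).

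Gria1 was between 129.8 and 149 CPM in controls and between 149 and 171 CPM in deleted cultures, with a log2 fold change of 0.16 (SE 0.065, 95% interval 0.025 to 0.30, FDR = 0.383). It was higher in the deleted culture of 2 of the 3 litters and 0.996 times the control in the other. Grik2 was higher in all 3 litters, with a log2 fold change of 0.15 (SE 0.075, 95% interval -0.016 to 0.31, FDR = 0.536), and it was 0.073 without the control culture of litter 4 and 0.074 without the deleted culture of that litter. Gria4 had a log2 fold change of 0.13 (95% interval -0.043 to 0.30), Grin2d 0.13 (-0.30 to 0.56), Gria3 -0.018 (-0.19 to 0.16) and Grik5 0.0085 (-0.11 to 0.12).

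Gria2 was at 739, 762 and 1002 CPM in the control cultures of litters 4, 5 and 6. In the deleted cultures it was at 815, 846 and 702 CPM in these litters and at 488 CPM in litter 7. It was thus higher in the deleted culture of litters 4 and 5 and lower in that of litter 6, and the culture without a control was the lowest of all 7. The log2 fold change was -0.073 (SE 0.13, 95% interval -0.37 to 0.22, FDR = 0.906). Grin2a had 9 to 41 reads per culture, 0.415 to 1.14 CPM in controls and 0.573 to 1.63 CPM in deleted cultures, and its log2 fold change of 0.73 (SE 0.47) had a 95% interval from -0.29 to 1.74.

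**Figure D2:**
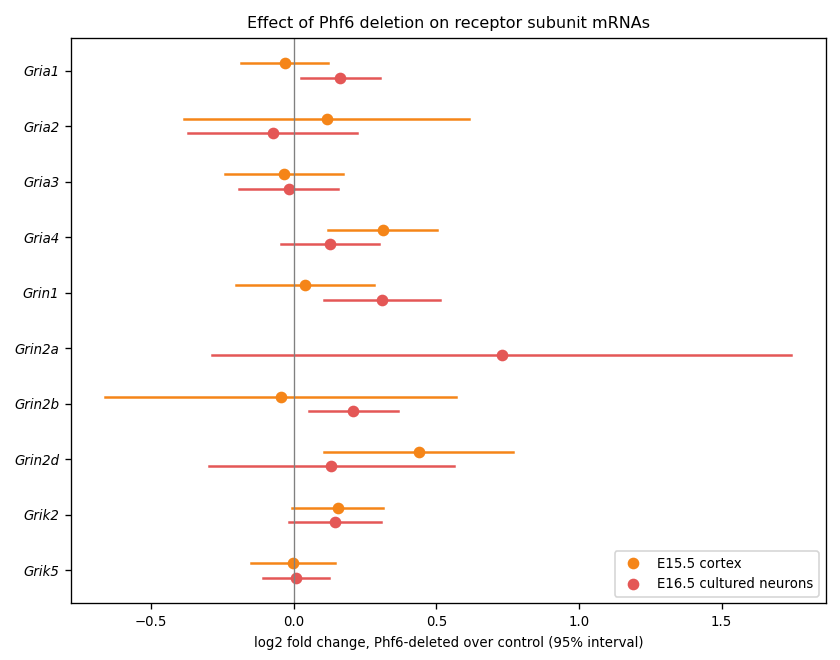
Log2 fold change of each member, Phf6-deleted over control, with its 95% interval from the edgeR fit with litter, for cortex (E15.5) and cultures (E16.5). Grin2a was not tested in the cortex. The intervals of Gria4 and Grin2d in the cortex and of Gria1, Grin1 and Grin2b in the neurons lie above 0 before adjustment over all genes, and none of these passed an FDR of 0.05.

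A term for the difference of the genotype effect between neurons and cortex was then fitted over all 15 libraries. Age, dissociation, culture, litter, the NesCre transgene and the kind of deletion (germline or by Cre) differ between these tissues and cannot be told apart. No member passed an FDR of 0.05, and 2 of 15001 genes did (0.0133%). The difference, neurons minus cortex on the log2 scale, was largest in size for Grin2a at 0.58 (95% interval -1.34 to 2.50), then Grin2d at -0.31 (-0.83 to 0.21) and Grin1 at 0.26 (-0.066 to 0.59), with FDR of at least 0.954 for all 10.

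The genes that work with these receptors were read from lists: 8 other ionotropic receptor genes, 17 AMPA and 2 kainate receptor auxiliary genes, 21 scaffold and kinase genes, 7 metabotropic receptor genes, 3 genes of the ADAR editing family and 5 glutamate transporter genes. In the cortex none of these genes passed an FDR of 0.05 in edgeR's test, and in the neurons none did. An unadjusted p below 0.05, in either direction, was reached in the cortex by 2, 1, 1, 3, 1, 1 and 1 genes of these lists in order. That compares with 10.5% of all genes. In the neurons it was reached by 2, 3, 1, 7, 3, 1 and 0, against 10.3% of all genes. The medians in the cortex were 0.10 for the other ionotropic receptor genes, 0.062 for the AMPA auxiliary genes, 0.0094 for the scaffold genes and 0.24 for the metabotropic receptor genes, and in the neurons 0.099, 0.11, 0.044 and 0.19, against medians near 0 over all genes. Among the other ionotropic receptor genes the largest estimate was that of Grin2c, a Grin2 gene of low level here, at -0.61 (SE 0.29, FDR = 0.485) in the cortex and -0.45 (SE 0.18, FDR = 0.399) in the neurons. Grik1, a kainate subunit gene of interneurons, was at 0.33 (SE 0.12, FDR = 0.324) in the cortex and 0.13 (SE 0.19, FDR = 0.882) in the neurons.

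Between cultured neurons and cortex 4 of the 10 members passed. This comparison sets the 3 control cultures against the 3 control cortices, in a fit that takes its spread from all 15 libraries. Age, dissociation, culture, litter and the NesCre transgene all differ between these groups and cannot be told apart. Of the members 3 were higher in neurons (Gria2, Gria4 and Grin2b), 1 was lower (Grin2d) and 6 did not pass. Of all 15001 genes tested 24.8% were higher and 27.3% lower, so these shares are near the background for genes higher in neurons and below it for genes lower. The same 4 members had groups that did not overlap, against 59.3% of all genes. The median log2 fold change was 0.20 over the members and -0.036 over all genes.

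Gria2 had the largest change among those that passed. It was at 229, 358 and 253 CPM in control cortices and at 739, 762 and 1002 CPM in control neurons, 2.98 times higher by the fit (log2 fold change 1.58, SE 0.25, FDR = 0.000128). Grin2b was at 18.99, 31.4 and 22.2 CPM in control cortices and at 65.6, 41.7 and 78.1 CPM in control neurons (log2 fold change 1.36, SE 0.34, FDR = 0.00494). Every culture was above every cortex for both genes. Gria4 was at 37.5 to 44.1 CPM in control cortices and at 49.6 to 70.4 CPM in control neurons (log2 fold change 0.52, SE 0.12, FDR = 0.00159).

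Grin2d went the other way. It was at 10.4, 11.4 and 8.79 CPM in control cortices and at 4.73, 5.26 and 5.26 CPM in control neurons, where it fell by 1.00 on the log2 scale (SE 0.25, FDR = 0.00309). Inhibitory neuron markers, summed over 8 genes, were also lower in the cultures, at 164 to 263 CPM against 645 to 840 CPM in the control cortices, and all 8 passed as lower. Radial glia markers, over 10 genes, were at 684 to 987 CPM against 2712 to 2863 CPM, and endothelial markers, over 6 genes, at 3.74 to 4.34 CPM against 158 to 190 CPM, with Cldn5 at 0 in the control cultures. Neuron markers, over 9 genes, were at 10309.9 to 11473 CPM in the cultures against 6494 to 7077 CPM, with 7 of the 9 higher. The astrocyte gene Gfap was at 13.4 to 17.5 CPM in control cultures and 0.250 to 1.57 CPM in control cortices. Aldh1l1, another astrocyte marker, went the other way, at 4.98 to 6.49 CPM in control cultures and 29.0 to 37.8 CPM in control cortices. Summed over 4 genes, astrocyte markers were at 19.7 to 25.0 CPM in control cultures and 30.5 to 40.0 CPM in control cortices. The part of this change in cell makeup in the members' differences was not tested.

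The 6 members that did not pass had log2 fold changes of 0.093 (Gria1, 95% interval -0.24 to 0.42), 0.28 (Gria3, -0.10 to 0.66), 0.045 (Grin1, -0.41 to 0.50), 1.13 (Grin2a, -0.28 to 2.55), 0.11 (Grik2, -0.11 to 0.34) and 0.0072 (Grik5, -0.18 to 0.20). With libraries scaled by their totals in place of TMM, the median of all genes moved from -0.036 to -0.18 and the estimates of Gria1, Grin1, Grik2 and Grik5 turned below 0 without a call. Grin2a passed when the control cortex of litter 2 was left out, at 2.39 (FDR = 0.015), that library holding 19 Grin2a reads and the other control cortices 3 and 5. Since the filter removed Grin2a from the cortex fit and kept it here through the cultures, where it is higher, this call carries no weight.

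In the Phf6-deleted libraries the cultures and cortices differed in the same 4 members, Gria4 here with ranges that overlapped. These libraries share no sample with the controls, but litter 7 aside they are littermates of the controls. Both comparisons come from the same fit, which has no litter term. It counts the deleted cortices as separate libraries although some are littermates of each other, so the errors given here may be too small. Age, dissociation, culture, litter and the NesCre transgene differ here too, and so does the kind of Phf6 deletion, germline or by Cre. The comparison in deleted libraries is therefore not an independent repeat. Gria2 was at 247 to 395 CPM in deleted cortices and 488 to 846 CPM in deleted cultures (log2 fold change 1.18, SE 0.20, FDR = 0.000167), Grin2b at 14.5 to 34.97 and 52.8 to 87.4 CPM (1.55, SE 0.28, FDR = 0.000346), Gria4 at 46.2 to 58.2 and 58.0 to 67.7 CPM (0.27, SE 0.099, FDR = 0.0246) and Grin2d at 8.11 to 18.5 and 4.90 to 7.24 CPM (-1.20, SE 0.21, FDR = 9.69e-05). Grin2a also passed here (1.73, SE 0.54, FDR = 0.0102), at 0.215 to 0.630 CPM in deleted cortices and 0.573 to 1.63 CPM in deleted cultures, ranges that overlapped. The filter on low counts removed Grin2a from the cortex fit and kept it here through the cultures, where it is higher. The call for Grin2a therefore carries no weight as a test. Of all genes 27.9% were higher and 31.0% lower in this comparison.

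**Figure D3:**
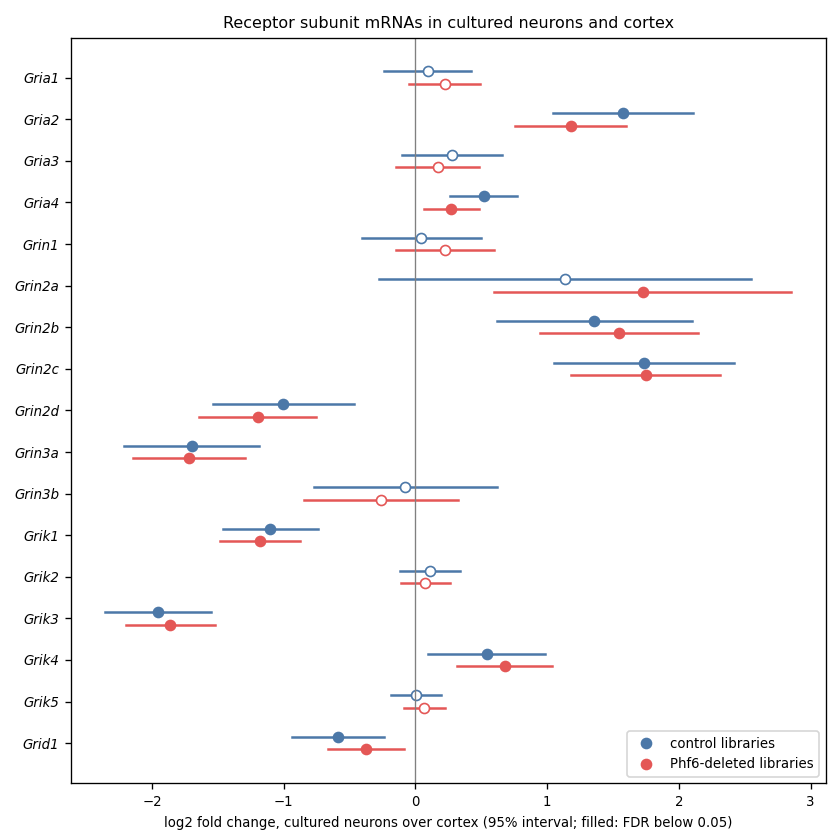
Log2 fold change of the ionotropic glutamate receptor genes, cultured neurons over cortex, with 95% intervals, in the control and in the Phf6-deleted libraries. Filled points passed an FDR of 0.05. Gria2, Grin2b and Grin2c lie well above 0, Grin2d, Grin3a, Grik1 and Grik3 well below it, and Grik5 and Grik2 close to it.

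Among the 8 other ionotropic receptor genes, 4 were lower in control neurons than in control cortex, 2 were higher and 2 did not pass, beside 27.3% of all genes lower and 24.8% higher in this comparison. Grik3, a pore-forming kainate subunit gene, fell by 1.95 on the log2 scale (SE 0.19, FDR = 1.05e-06), from 28.1 ± 2.29 to 7.27 ± 1.19 RPKM (SD, n = 3 each). Grin3a, whose product lowers calcium entry through NMDA receptors, fell by 1.70 (SE 0.24, FDR = 1.68e-05), Grik1 by 1.10 (SE 0.17, FDR = 4.11e-05) and the delta receptor gene Grid1 by 0.59 (SE 0.17, FDR = 0.00639). Grin2c rose by 1.74 (SE 0.33, FDR = 0.000245) and Grik4, the other partner subunit of kainate receptors, by 0.54 (SE 0.21, FDR = 0.039). Grin3b, among those that did not pass, was at -0.076 (SE 0.33, FDR = 0.868).

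Of the 17 AMPA auxiliary genes, 7 were higher in control neurons, 1 was lower and 9 did not pass, again beside 24.8% and 27.3% of all genes. Cacng2, the gene of the AMPA receptor trafficking protein stargazin, rose by 0.91 (SE 0.11, FDR = 4.31e-06) and Frrs1l, a gene of AMPA receptor assembly, by 0.87 (SE 0.12, FDR = 1.54e-05), whereas Gsg1l fell by 1.73 (SE 0.15, FDR = 8.95e-08). Of the kainate receptor partners Neto2 rose by 0.52 (SE 0.14, FDR = 0.00454) and Neto1 fell by 1.03 (SE 0.23, FDR = 0.00136). Of the 21 scaffold and kinase genes, 10 were higher, 4 lower and 7 did not pass, against the same 24.8% and 27.3%: the scaffold genes Homer1 and Homer2 rose by 1.29 (SE 0.16, FDR = 8.42e-06) and 0.74 (SE 0.092, FDR = 3.53e-06), and the kinase gene Camk2a fell by 1.83 (SE 0.17, FDR = 2.75e-07) and Nsf, a gene of membrane fusion, by 0.39 (SE 0.081, FDR = 0.000528). Their medians on the log2 scale were 0.099 for the AMPA auxiliary genes, -0.26 for the kainate receptor partners and 0.24 for the scaffold genes, beside -0.036 over all genes.

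The same shares of all genes stand beside the next lists. Of the 7 metabotropic receptor genes, 2 were higher in control neurons, Grm2 by 1.38 (SE 0.19, FDR = 8.53e-06) and Grm7 by 0.74 (SE 0.17, FDR = 0.00133), and Grm4 was lower, having dropped by 1.89 (SE 0.26, FDR = 1.07e-05). All 3 genes of the ADAR editing family passed: Adarb1, whose product edits the GluA2 pore site, rose by 0.60 (SE 0.11, FDR = 0.000249), Adar rose by 0.37 (SE 0.068, FDR = 0.000191) and Adarb2 fell by 1.11 (SE 0.16, FDR = 1.52e-05). Of the 5 transporter genes, Slc1a1, a neuronal glutamate uptake gene, rose by 1.40 (SE 0.20, FDR = 3.68e-05) and Slc17a6 by 0.45 (SE 0.17, FDR = 0.0373), while the glial uptake gene Slc1a3 fell by 0.70 (SE 0.15, FDR = 0.00086) and Slc17a7 by 0.61 (SE 0.19, FDR = 0.0149). The median was 0.082 over the metabotropic, 0.37 over the editing and -0.0071 over the transporter genes.

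The composition of each receptor family was read as the share of each gene in the family's reads per kilobase. In control cortex Gria2 made up 48.7% ± 3.35 (SD, n = 3) of AMPA subunit mRNA, Gria1 30.3% ± 1.17, Gria3 11.9% ± 0.72 and Gria4 9.07% ± 1.57. In control neurons Gria2 made up 71.0% ± 1.82 and Gria1 15.9% ± 1.86. The share of Gria2 was 22.3 percentage points higher in control neurons, with no overlap, and the exact two-sided permutation test gave p = 0.1, the smallest that 3 against 3 allows (adjusted p = 0.4 over the 12 share tests).

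In the Grin2 family Grin2b made up 52.3% ± 3.72 and Grin2d 38.5% ± 5.72 (SD, n = 3) in control cortex, and 72.7% ± 5.75 and 10.8% ± 3.14 in control neurons. Grin2c had 8.03% ± 1.73 and 15.0% ± 3.81, and Grin2a 1.14% ± 0.95 and 1.44% ± 0.42. The difference of the Grin2b share was 20.4 percentage points (exact permutation p = 0.1, adjusted p = 0.4), and that of Grin2a 0.30 points (exact permutation p = 0.7). In Phf6 -/Y cortex the Grin2b share spread from 30.0% to 61.2%, the lowest being the library with few excitatory neuron markers, and Grin2d held 65.6% in it. In deleted neurons the Grin2b share lay between 76.2% and 78.5% in all 4 cultures.

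In the kainate family Grik5 made up 58.5% ± 2.20, Grik3 25.8% ± 1.27 and Grik2 10.9% ± 1.62 (SD, n = 3) in control cortex, and 72.6% ± 2.33, 8.23% ± 1.53 and 14.5% ± 2.30 in control neurons. The share of Grik2 differed by 3.52 percentage points (exact permutation p = 0.1, adjusted p = 0.4), while by their own levels Grik3 was lower and Grik2 and Grik5 did not pass.

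The shares of Gria2, Grin2b, Grin2a and Grik2 were tested between Phf6-deleted and control libraries, and none passed; the other shares were not tested. The share of Gria2 differed by 1.19 percentage points in the cortex (deleted minus control, exact two-sided permutation p = 0.786) and by -5.60 points in the neurons (exact p = 0.257), that of Grin2b by -4.18 (exact p = 0.643) and 4.65 points (exact p = 0.171), that of Grin2a by 0.018 (exact p = 1) and 0.52 points (exact p = 0.286), and that of Grik2 by 0.95 (exact p = 0.339) and 0.48 points (exact p = 0.743). Adjusted p-values over the 12 tests were 0.514 or more for these 8. The smallest p these designs allow is 0.018 in the cortex and 0.029 in the neurons. Without the culture of litter 7, which has no control, the Gria2 share differed by -2.76 points in the neurons. That difference was -1.39, 1.86 and -8.76 points within litters 4, 5 and 6, so its sign was not the same in each. Within litters 4, 5 and 6 the share of Grin2b was higher in the deleted culture by 4.32, 9.27 and 0.13 points, and that of Grin2a by 1.39, 0.27 and 0.54 points. With genotype permuted within litters the exact two-sided p was 0.25 for both, the smallest that 3 pairs allow, and 0.33 or more for every share tested in the cortex, where 0.056 is the smallest.

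**Figure D4:**
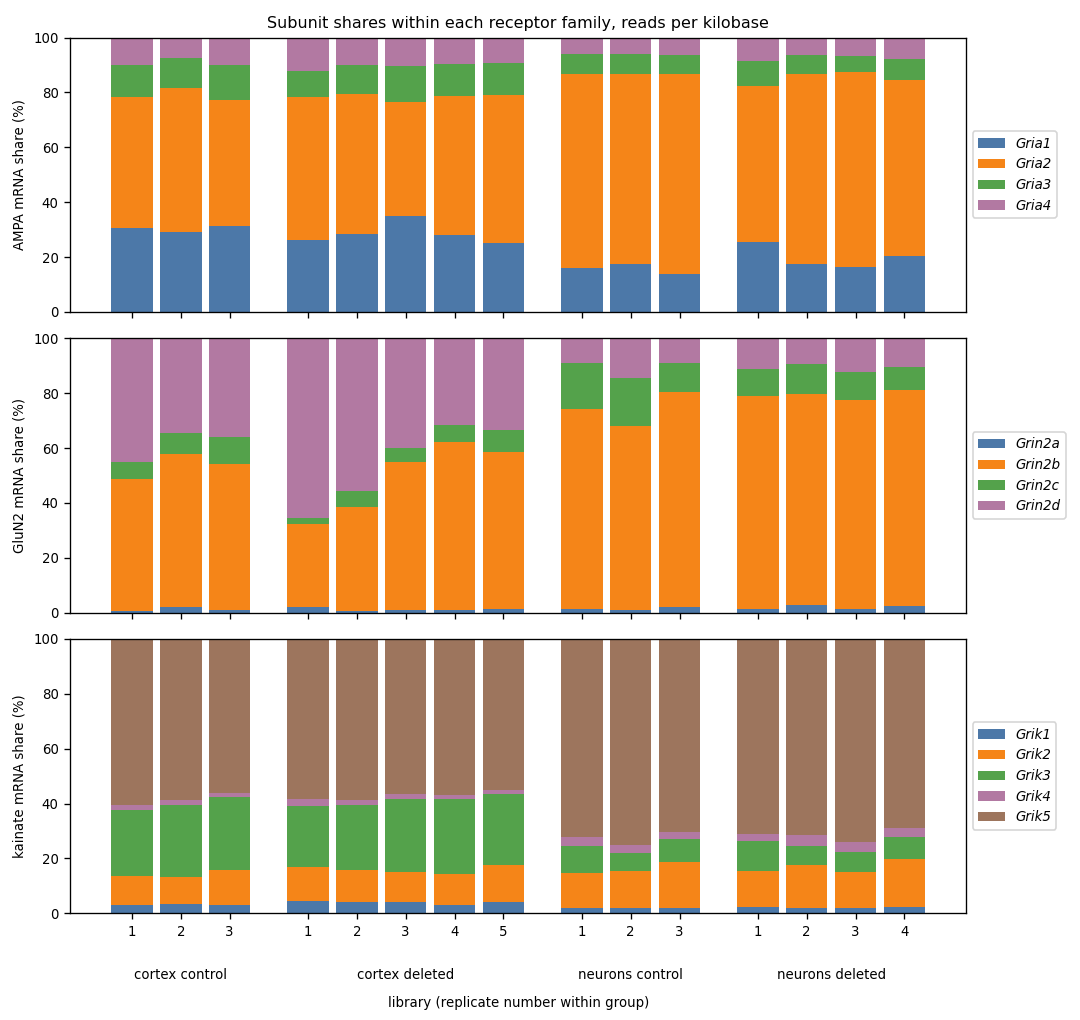
Share of each gene in the reads per kilobase of its family (percent, stacked to 100) in each library, for the AMPA, Grin2 and kainate families. Gria2, Grin2b and Grik5 take larger shares in all 7 cultures than in the cortices of the same genotype, and the deleted cortex replicate 1 has the largest Grin2d share, 65.6%.

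The levels of some members moved together over libraries within groups. After each group's mean of log2 CPM was taken away, Pearson's r over the 15 libraries was 0.90 between Gria1 and Gria3, 0.86 between Gria1 and Grin1 and 0.78 between Gria4 and Grik2, and was lowest, -0.43, between Grik2 and Grik5 and between Gria2 and Grin2d. These points share litters and the library that stood apart, and they are descriptions. For the member of each class with the highest mean RPKM over all 15 libraries (Grin2b was above Grin1 in the neurons), the genes most like it by the same measure were Ccdc39 (r = 0.93), AI450353 (0.92) and Atr (0.90) for Gria2, Ydjc (0.95), the kinase subunit gene Camk2b (0.95) and Lonrf1 (0.95) for Grin1, and Atp13a2 (0.95), the calcium channel regulator gene Cbarp (0.93) and Adgrb1 (0.91) for Grik5. No gene was among the 3 most like for more than 1 of these members. These genes were picked as the highest r over all genes kept by the filter, so r is high partly by that choice. They too are descriptions.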

How the data were processed

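RNA of 8 E15.5 cortices and 7 cultures of E16.5 cortical neurons was sequenced by the authors as stranded paired-end libraries, aligned to mm10 with the Rsubread aligner and counted into Entrez genes by featureCounts, using the RefSeq annotation built into it. The deposited values are counts without normalization, and all 15 per-sample files equalled their column of the series table. The gene length deposited beside them was used for RPKM.

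Identifiers were matched to RefSeq symbols (GRCm38). Rows without an identifier (1029, holding 0.349 to 0.605% of counts), unmatched identifiers (875), pseudogenes (835), rRNA genes (35) and genes with predicted names (1273) were left out. Genes were filtered with filterByExpr and scaled by TMM. Genotype was tested in each tissue with edgeR 4.0.16 (robust quasi-likelihood F test, R 4.3.3) with litter as a term, with Benjamini-Hochberg adjustment (FDR) over all genes tested. The fits were also run on simulated counts. The changes set there were larger than the members' genotype estimates, so that run cannot tell how often changes of the members' size are found. The pairing comes from the litters in the labels, which the replicate numbers do not follow. Tissues were compared as group means over all 15 libraries. Subunit shares used exact permutation tests. Alternatives were limma 3.58.1, DESeq2 1.42.0, other scaling, no filter, no litter term and each library left out. The members and lists were chosen with earlier results of these data known. Named were Phf6, all members, the other ionotropic receptor genes (values of some listed genes are not reported here), listed genes past the FDR in a Phf6 comparison, the 2 listed genes with the smallest p in each direction between tissues, and the 3 genes most like the highest member of each class. Error terms cover library spread, and total counts were 16858007 to 31157700. The comparison within deleted libraries and the permutation of shares within litters were chosen after seeing the data.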

Additional observations from a re-analysis of the deposited data

Results flagged for a closer look

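In the Phf6 lox/Y NesCre T/+ cultures, Grin1 in replicate 2 (litter 4) was at 28.7 CPM while the other 3 cultures lay between 36.4 and 36.7 CPM, so that its gap to the nearest was 0.96 of the whole range. The control culture of the same litter also held the lowest Grin1 of its group, at 22.4 CPM. Of 20 groups of values looked at (10 members in the 2 groups with 4 or 5 libraries) this was the only 1 past Dixon's limit, and chance flags about 1 in 20.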

How the results depend on the processing

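No member passed an FDR of 0.05 in the cortex under limma, DESeq2, DESeq2 size factors, library totals, no filter or any library left out (0 in each), and in the neurons the count was 0 to 1 with a library left out, the 1 being Grin1 without the control of litter 6. With the replicate block left out, that is without the litter term, the count of members stayed at 0 in the cortex, the neurons and the difference between tissues, while calls over all genes went from 57 to 1 and from 38 to 1, and Gria1, Gria3 and Grin2b in the cortex turned to 0.049, 0.066 and 0.073 and the difference for Gria3 to -0.11. Over all genes, 114 (cortex) and 297 (neurons) were called without the filter, 195 and 63 with DESeq2, and 73 in neurons with library totals; leaving out 1 library gave 7 to 81 and 16 to 494. The difference between tissues was not fitted with other tools or scalings. Between control neurons and control cortex 4 members passed under limma, DESeq2, its size factors, library totals, no filter and the 6 control libraries alone, and 4 to 5 with a library left out, 5 without the control cortex of litter 2 and 5 in the deleted libraries. Grin2a, kept by the filter through the cultures, was the added member wherever 5 passed.

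Estimates near 0 changed sign. Grik5 in the cortex was at 0.0037 with DESeq2, 0.0038 with its size factors, 0.0025 with library totals and 0.0024 without a filter, and in the neurons at -0.0048 with library totals. Between tissues library totals gave -0.031 for Grik2, -0.051 for Gria1, -0.10 for Grin1 and -0.14 for Grik5, and no filter -0.00086 for Grik5. With each library left out, the cortex values ran from -0.080 to 0.053 for Gria1, -0.077 to 0.32 for Gria2, -0.14 to 0.084 for Gria3, -0.10 to 0.19 for Grin1, -0.30 to 0.092 for Grin2b and -0.084 to 0.059 for Grik5. In the neurons they ran from -0.19 to 0.15 for Gria2, -0.11 to 0.041 for Gria3, -0.0054 to 0.23 for Grin2d and -0.015 to 0.023 for Grik5. The difference between tissues ran from -0.39 to 0.025 for Gria2, -0.10 to 0.11 for Gria3, -0.84 to 1.38 for Grin2a, -0.088 to 0.051 for Grik2 and -0.051 to 0.082 for Grik5, and control neurons against control cortex from -0.017 to 0.21 for Gria1, -0.095 to 0.17 for Grin1, -0.014 to 0.20 for Grik2 and -0.094 to 0.063 for Grik5. Shares ran from -0.25 to 3.32 points for Gria2, -7.45 to 0.36 for Grin2b and -0.35 to 0.56 for Grin2a in the cortex, -0.45 to 1.80 for Grik2 in the neurons and -0.074 to 0.83 for Grin2a between tissues. With genotype permuted within litters, a replicate block added after the data had been seen, the 8 share differences between genotypes kept their direction and none passed (adjusted p = 0.8 or more). Of estimates that kept their sign, those in the neurons ran from 0.073 to 0.21 for Grik2 and 0.079 to 0.22 for Gria4. The cause of these changes was not tested. Depth limits Grin2a most, with 3 to 41 reads per library.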
